A study of Mus musculus with 6 samples.

Results

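Keratins, desmosomal proteins and the proteins and enzymes of the cornified envelope were followed in whole colon of mice labelled NHE3+/+ and NHE3-/-. NHE3 is a sodium-hydrogen exchanger of gut epithelium whose gene is Slc9a3. The members were all genes with a symbol of Krt, Sprr, Dsg, Dsc or Pkp followed by a digit, together with Casp14, Ivl, Tgm1, Tgm2, Tgm3, Dsp, Jup, Evpl and Ppl, that have at least 1 probe set naming no other gene. They numbered 76 of the 18194 genes so named on the array, read by 112 probe sets, and the probe set with the highest mean signal stood for each gene. A further 4 probe sets name a member together with another gene, among them the Sprr2a genes, and were left out. There were 3 arrays of NHE3+/+ (wild-type) mice and 3 of NHE3-/- mice, aged 6 to 8 weeks, with whole colon taken in both groups and no treatment named. The labels do not give the strain, the sex, the number of animals behind an array or the part of Slc9a3 that is disrupted. Nor do they tie each array to its own animal: the p-values describe how far these samples scatter, and that scatter could be technical. The brighter Slc9a3 probe set had 5908, 5647 and 6669 on the NHE3+/+ arrays and 5970, 4266 and 3665 on the NHE3-/- arrays, overlapping and not called (log2 fold change -0.42, SE 0.16; adjusted p = 0.120 in limma). A dimmer one had 345.6, 344.8 and 107.8 against 473.4, 608.7 and 264.9 (0.76, SE 0.39; adjusted p = 0.230). Whether either probe set lies in the disrupted part is not known here, so the target gene gave no check of the genotype labels, and each genotype below is the labelled one.

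Keratins form the intermediate filaments of epithelial cells by pairing a type I with a type II chain. Simple epithelium such as that of the gut uses Krt8 and Krt7 (type II) with Krt18, Krt19 and Krt20 (type I), whereas stratified squamous epithelium uses Krt5 with Krt14 in its basal layer and other pairs above. Filaments are anchored at desmosomes, where the cadherins of the Dsg and Dsc families join neighbouring cells and plakoglobin (Jup), plakophilins (Pkp) and desmoplakin (Dsp) link them to keratin. In squamous epithelium, transglutaminases cross-link envelope proteins such as the small proline-rich proteins, involucrin, envoplakin and periplakin into the cornified envelope. Simple-epithelium and squamous genes are therefore described apart.

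Of the 76 genes, 39 had a mean signal past the filter on dim probe sets and were tested. The other 37 lay between 0.6 and 126.5 on every array and are given as signals only. The filter used the mean over both groups, and Krt13 and Krt6a passed it through the NHE3-/- arrays alone. Of the 39 tested, 6 were higher and 5 lower in NHE3-/- colon at an adjusted p under 0.05, or 15.4% and 12.8%. Over all 27022 probe sets tested, 4.97% were higher and 6.24% lower. Over the 12551 genes tested through 1 probe set each, 6.42% were higher and 7.55% lower. Among the 39 tested, the arrays of the genotypes did not overlap for 11 members that were higher and 7 that were lower in NHE3-/- colon, against 12.2% and 20.1% of all probe sets tested and 14.8% and 22.0% of genes. Of the 37 not tested, 3 were apart upward (Dsc1, Ivl and Krt73) and 2 downward (Krt14 and Krt6b), all at dim signals. No share over all untested genes was computed, so these counts have no background and are not read as a result. The called members that were higher were Casp14, Sprr2h, Tgm3, Sprr2k, Tgm2 and Krt36, and the called ones that were lower were Krt18, Pkp2, Pkp4, Krt7 and Dsp. Among 17 tested squamous genes 4 were higher and 0 lower (median log2 fold change 0.13), with 6 higher and 2 lower at an unadjusted p under 0.05 in limma. Among 11 tested simple-epithelium genes 0 were higher and 4 lower (median -0.05), with 1 higher and 4 lower at that unadjusted p. As background for the unadjusted counts here and below, 1562 of the 12551 genes tested were higher and 2323 lower at that p. The median over all tested probe sets was -0.10 on the scale as deposited, -0.02 after quantile normalization and 0.01 once array medians were set equal, and all log2 fold changes here are on the deposited scale. The split of calls moved with that scale: with medians set equal 9 members were higher and 1 lower, against 1595 and 738 of all probe sets. The difference between the squamous and the simple-epithelium genes was not tested.

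**Figure D1:**
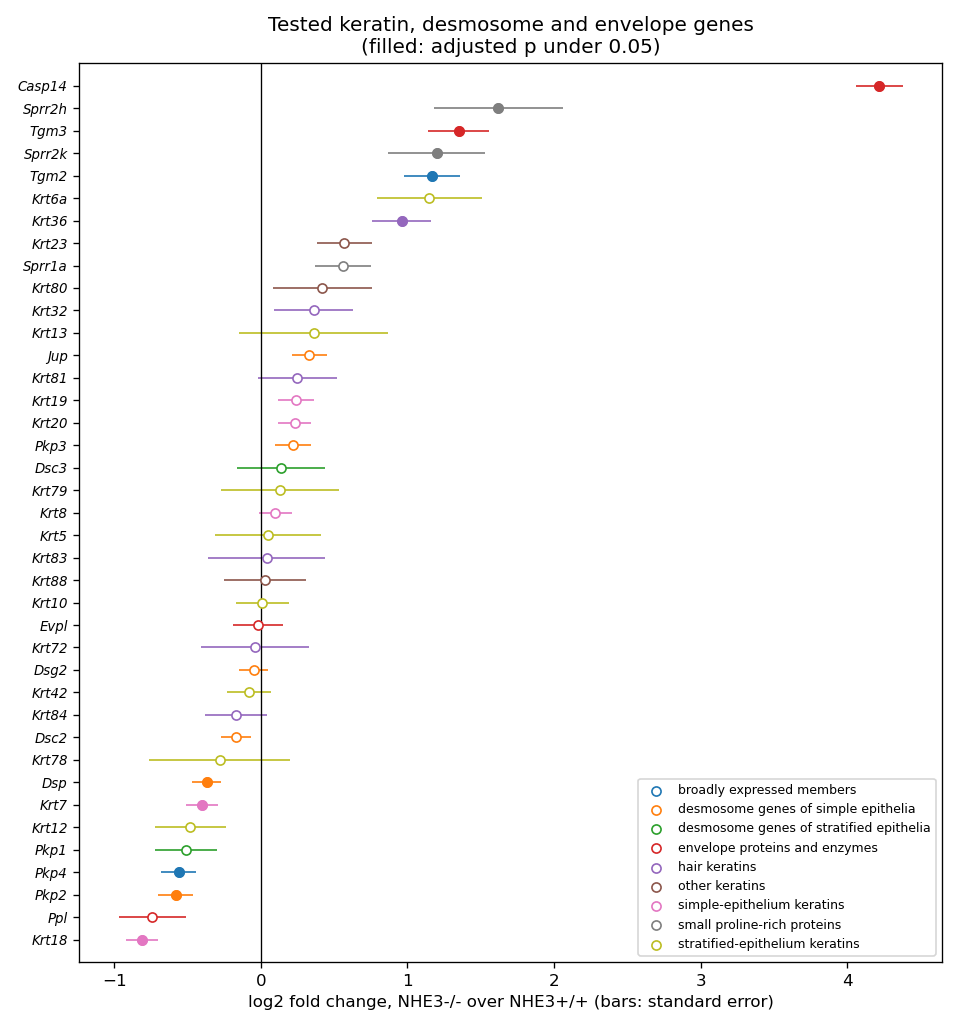
Log2 fold change (horizontal axis, NHE3-/- over NHE3+/+, 3 arrays each, on the log2(signal + 31.4) scale) with limma's standard error for each of the 39 tested members, coloured by family; filled points have an adjusted p under 0.05. Casp14 stands at 4.22, the other called genes that are higher lie between 0.96 and 1.62, and Krt18 is lowest at -0.81.

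The arrays were alike in overall signal, with medians from 97.8 to 121.4. NHE3-/- arrays 1 and 2 carried Xist, the RNA of the inactive X chromosome of female cells, at 2639 and 1929. NHE3-/- array 3 had 12.3, and the wild-type arrays had 2.0 to 8.0. On NHE3-/- arrays 1 and 2 a difference of genotype and one of sex cannot be told apart. The part of sex in the values below was not tested. With NHE3-/- array 3 alone against the 3 wild-type arrays, in a fit where its spread is taken from the wild-type arrays, 3 members were higher (Casp14, Tgm3 and Sprr2k) and 1 was lower (Krt18). Of the 9 colon epithelium markers, Epcam, an epithelial adhesion molecule, had 24617, 28489 and 21888 in wild type against 28157, 28547 and 31454. Cdh1, E-cadherin, had 15533, 14082 and 16503 against 14030, 15133 and 16504. The summed signal of these markers was 140278 to 158542 in wild type and 159698 to 183720 in NHE3-/- colon. The samples thus carried these epithelial markers on every array, while the smooth muscle markers, given further below, were dimmer. In whole tissue, fewer cells of a type and less RNA per cell cannot be told apart.

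The keratins of simple epithelium were among the brightest members, and 2 of their 5 genes were lower, with 0 higher at either the adjusted or the unadjusted p. Krt18, the type I partner of Krt8, had signals of 17162, 20192 and 16747 on wild-type arrays 1, 2 and 3 and of 9460, 11066 and 10290 on the NHE3-/- arrays. The groups did not overlap. Krt18 fell from a mean of 18033 ± 1881 to 10272 ± 803 (SD, n = 3 each), so the mean fell by 43.0%, and limma gave a log2 difference of -0.81 (SE 0.11; adjusted p = 0.00106). Its call held in all 16 alternative settings, with log2 fold changes from -0.97 to -0.69.

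Krt8, the main type II keratin of gut epithelium, did not pass the test. Its signals were 37861, 44611 and 38849 in wild type and 39434, 42570 and 48400 in NHE3-/- colon, overlapping groups with a log2 change of 0.10 (SE 0.11; adjusted p = 0.588), which was -0.07 after quantile normalization. Its 2 other probe sets had 0.12 and 0.20. Krt19, a type I chain without the usual tail domain, had 32545, 41269 and 31850 against 37873, 40827 and 45410 (0.24, SE 0.12; adjusted p = 0.232). With medians set equal Krt19 reached 0.36 (adjusted p = 0.0309). Krt20, a type I chain of differentiated surface cells, had 20931, 23726 and 21669 against 24221, 23992 and 29632. The NHE3-/- arrays all lay above the wild-type ones for Krt20, but its log2 change of 0.23 (SE 0.11; adjusted p = 0.210) did not pass. Krt18 thus changed unequally with the chains it shares the epithelium with. The within-array ratio of Krt18 to Krt8 signal was 0.453, 0.453 and 0.431 in wild type and 0.240, 0.260 and 0.213 in NHE3-/- colon, a log2 difference of -0.91. The corresponding differences were -1.05 against Krt19 and -1.04 against Krt20. Each of these 3 ratios, chosen after the values were seen, gave two-sided p = 0.1 in an exact permutation test, the smallest that 3 against 3 arrays allow. All 3 share the Krt18 signals, whose groups were already apart, so these p-values add no separate evidence. The ratio of Krt7 to Krt8, also formed, had a log2 difference of -0.51 and the same p in that test.

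Krt7, a type II keratin of ducts and of some gut epithelial cells, had 2402, 2675 and 2711 in wild type and 1794, 2012 and 2068 in NHE3-/- colon. All 3 NHE3-/- arrays lay below all 3 wild-type arrays, and the mean fell from 2596 ± 169 to 1958 ± 144 (± SD over 3 arrays each). The log2 difference in limma was -0.40 (SE 0.11; adjusted p = 0.0398). The call was lost without wild-type array 2 (-0.38) or 3 (-0.37), without NHE3-/- array 1 (-0.34), 2 (-0.42) or 3 (-0.44), with medians set equal (-0.28), without a filter and without a variance trend.

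**Figure D2:**
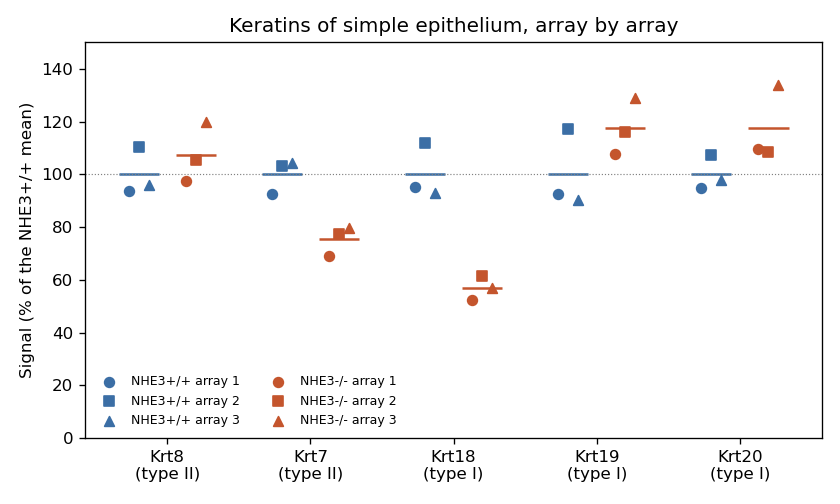
Signal of the 5 simple-epithelium keratins on each array as a percentage of the NHE3+/+ mean of that gene (vertical axis, from 0), with marker shape giving the array number and horizontal bars the group means. The NHE3-/- points of Krt18 and Krt7 lie below all of their wild-type points and those of Krt20 above, while for Krt8 and Krt19 the groups overlap, with NHE3-/- array 3 above every wild-type point.

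Of the 6 desmosome genes used by simple epithelia, 2 were lower and 0 higher, with 1 higher and 2 lower at an unadjusted p under 0.05 in limma. Pkp2, the plakophilin of simple epithelium and heart, had 2157, 1993 and 2446 in wild type and 1454, 1545 and 1382 in NHE3-/- colon, without overlap. Its mean fell from 2198 ± 229 to 1460 ± 81.7 (± SD over 3 arrays each). Limma gave a log2 difference of -0.58 (SE 0.12; adjusted p = 0.0110). Its other tested probe sets had -0.17 and -0.46 and were not called. The Pkp2 call was lost with medians set equal (-0.46), without a variance trend and with NHE3-/- array 3 alone (-0.65).

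Dsp, desmoplakin, which ties keratin filaments to the desmosomal plaque, had 13179, 12673 and 14162 against 10921, 9611 and 10341. The groups were apart, and the mean fell from 13338 ± 757 to 10291 ± 656 (± SD over 3 arrays each). In limma its log2 difference was -0.37 (SE 0.10; adjusted p = 0.0315). That call was lost when any of the 6 arrays was left out (-0.42 to -0.33) and with medians set equal (-0.25). Of 2 further Dsp probe sets, 1 had -0.28 and the other 0.04, and neither was called, so the probe sets of this gene disagree. With the 3 averaged the log2 fold change was -0.21 (adjusted p = 0.175).

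The desmosomal cadherins of gut epithelium did not pass the test. Dsg2, desmoglein 2, had 14125, 12169 and 12714 in wild type against 13059, 11866 and 12679 (-0.05, SE 0.10; adjusted p = 0.776). Its 6 probe sets ran from -0.16 to 0.31, on both sides of zero. Dsc2, desmocollin 2, had 5564, 5772 and 5622 against 4784, 5508 and 4813 (-0.17, SE 0.10; adjusted p = 0.296), while its second probe set had 0.21. Jup, plakoglobin, which binds both the cadherins and desmoplakin, had 2593, 2470 and 3249 against 3544, 3211 and 3686. The NHE3-/- arrays were mostly higher, and the log2 change of 0.33 (SE 0.12; adjusted p = 0.110) was 0.45 (adjusted p = 0.0480) without wild-type array 3. Pkp3, a plakophilin found in most desmosomes, had 1376, 1612 and 1644 against 1751, 1660 and 2008, apart by a narrow gap (0.22, SE 0.12; adjusted p = 0.275), and its other probe set had 0.42.

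Pkp4, a plakophilin relative of broad distribution that is also found at adherens junctions, had 2189, 2020 and 2549 in wild type and 1576, 1554 and 1410 in NHE3-/- colon. The groups did not overlap, and the mean fell from 2253 ± 270 to 1513 ± 90.3 (± SD over 3 arrays each). The log2 difference in limma was -0.56 (SE 0.12; adjusted p = 0.0145). A second probe set had -0.42 (adjusted p = 0.124). The Pkp4 call was lost without wild-type array 3 (-0.47) or NHE3-/- array 3 (-0.51), with medians set equal (-0.44), without a variance trend and with NHE3-/- array 3 alone (-0.66).

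Adherens junction and hemidesmosome genes served as a comparison list. Of 11 tested, 1 was lower and 0 higher, with 0 higher and 1 lower at an unadjusted p under 0.05 in limma (median log2 fold change 0.02). The lower gene was Dst, dystonin, the plakin that links keratin to hemidesmosomes in epithelium and is also expressed in nerve and muscle. Its signals were 1911, 2325 and 2838 against 1704, 1366 and 1281 (-0.68, SE 0.16; adjusted p = 0.0208). The Dst call was lost without wild-type array 2 or 3, without NHE3-/- array 2 or 3 and with medians set equal. With its probe sets averaged the log2 fold change was -0.17.

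The envelope genes held the member with the largest change. Casp14, a caspase of cornifying keratinocytes that takes part in filaggrin processing rather than in cell death, had 138.3, 142.9 and 153.1 on the wild-type arrays and 2614, 3255 and 3999 on the NHE3-/- arrays. Every NHE3-/- array stood far above every wild-type array, whereas the wild-type arrays lay close together. The mean rose from 145 ± 7.57 to 3289 ± 693 (SD, n = 3 each), to 22.7 times the wild-type mean, with a log2 change of 4.22 (SE 0.16; adjusted p = 4.9e-07). A second Casp14 probe set had 160.9, 202.2 and 258.3 against 473.0, 647.5 and 784.7 (1.47, SE 0.22), also without overlap. Casp14 passed in all 16 alternative settings, with log2 fold changes from 2.85 when both probe sets were averaged to 4.52.

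Tgm3, a transglutaminase that cross-links envelope proteins in skin and hair, had 3612, 5574 and 4251 in wild type and 8741, 10190 and 16256 in NHE3-/- colon. The groups were apart, with NHE3-/- array 3 the highest. The mean rose from 4479 ± 1001 to 11729 ± 3987 (± SD over 3 arrays each). Limma gave a log2 difference of 1.35 (SE 0.21; adjusted p = 0.00297). Its second probe set gave 1.67 (SE 0.26). Tgm3 was called in all 16 alternative settings, from 1.09 to 1.88. Tgm2, the tissue transglutaminase, which is expressed in many cell types and is no envelope gene in particular, had 1117, 704.4 and 1148 against 2195, 2658 and 1875. Its mean rose from 990 ± 248 to 2243 ± 394 (± SD over 3 arrays each). In limma its log2 difference was 1.17 (SE 0.19; adjusted p = 0.00345). All 5 tested Tgm2 probe sets were called, with log2 fold changes from 1.00 to 1.42. With NHE3-/- array 3 alone Tgm2 had 0.93 (adjusted p = 0.0686).

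The remaining envelope genes were not called. Tgm1, the transglutaminase anchored to keratinocyte membranes, was not tested, with signals of 48.1, 68.0 and 26.5 in wild type and 9.5, 106.9 and 109.8 in NHE3-/- colon. Ivl, involucrin, a substrate laid down early in the envelope, was not tested either, at 6.6, 20.8 and 9.5 against 25.7, 66.4 and 22.8. Evpl, envoplakin, had 537.0, 756.6 and 718.6 against 634.3, 573.4 and 764.1, with overlapping groups (-0.02, SE 0.17; adjusted p = 0.948). The sign of the Evpl value turned under other scalings, to 0.08 after quantile normalization and 0.09 with medians set equal. Ppl, periplakin, the plakin that pairs with envoplakin, had 243.9, 294.0 and 205.8 against 165.9, 113.2 and 130.0. The Ppl groups did not overlap, and its log2 change of -0.74 (SE 0.23; adjusted p = 0.0623) passed with a stricter filter (adjusted p = 0.0468) and with probe sets averaged per gene (adjusted p = 0.0291).

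Small proline-rich proteins are short envelope substrates made of repeats rich in proline and are encoded by neighbouring genes. Of 9 members, 3 were tested, and of these 2 were higher and 0 lower, with 3 higher and 0 lower at an unadjusted p under 0.05 in limma. Sprr2h had 77.6, 18.4 and 167.2 in wild type and 390.9, 290.3 and 197.4 in NHE3-/- colon. Its groups were apart by a narrow gap between wild-type array 3 and NHE3-/- array 3. The mean rose from 87.7 ± 74.9 to 293 ± 96.8 (± SD over 3 arrays each). The log2 difference in limma was 1.62 (SE 0.44; adjusted p = 0.0380). The call was lost without wild-type array 1 (1.66) or 2 (1.10), without NHE3-/- array 1 (1.40) or 2 (1.60), with a smaller pseudocount (1.98), without a filter, without a variance trend and with NHE3-/- array 3 alone (1.16).

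Sprr2k had 312.7, 303.6 and 236.9 in wild type and 529.2, 452.2 and 1360 in NHE3-/- colon. The groups did not overlap, and NHE3-/- array 3 was more than the other 2 arrays of its group together. The mean rose from 284 ± 41.4 to 780 ± 503 (± SD over 3 arrays each). Limma gave a log2 difference of 1.20 (SE 0.33; adjusted p = 0.0391). Without NHE3-/- array 3 the value was 0.73 (adjusted p = 0.0616). The Sprr2k call was also lost without wild-type array 1 (1.27), 2 (1.25) or 3 (1.09), without a filter and without a variance trend. Sprr1a, the brightest of the family, had 1392, 2152 and 2672 against 3024, 3144 and 2758. Its arrays did not overlap either, but the log2 change of 0.56 (SE 0.19; adjusted p = 0.0873) did not pass. Leaving out wild-type array 3 gave 0.77 (adjusted p = 0.0289), and setting medians equal gave 0.68 (adjusted p = 0.0383). Sprr1b, Sprr2d, Sprr2f, Sprr2i, Sprr2j-ps and Sprr3 were below the filter, with signals from 2.4 to 108.7. Sprr2 genes are close copies of each other, and probe sets of this family can share transcripts, so the value of a single Sprr2 gene is uncertain.

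**Figure D3:**
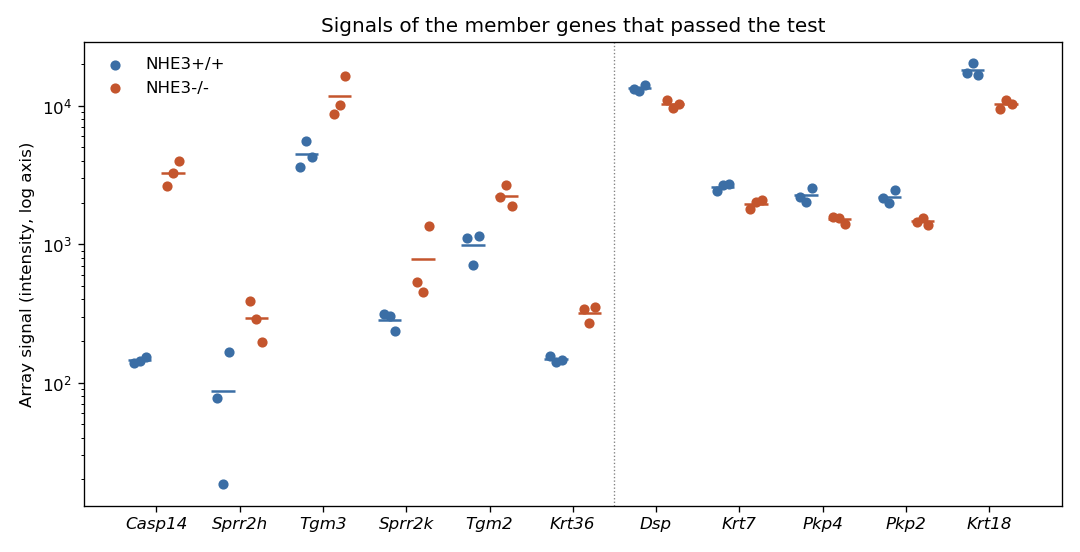
Signal of each of the 11 called members on every array (vertical log axis), with wild-type arrays in blue, NHE3-/- arrays in orange and horizontal bars at the group means; the dotted line separates higher from lower genes. The 3 arrays of a genotype lie on the same side of the other genotype for every gene shown, by the widest margin for Casp14.

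The stretches before the start sites of the higher genes are shown because these members moved in the same direction. RefSeq promoter windows of build GRCm38.p6 were at hand for 47 of the 76 members, and for 5 of the 6 higher ones. Windows of the lower members were those of Dsp, Krt18, Krt7 and Pkp4, with Pkp4 counted at each of its start sites. For Pkp2 no window was at hand. The 250 bases before the start are printed 5′ to 3′ on the strand of the gene, with capitals for TGANTCA, the AP-1 sequence that is known from squamous genes, and for TATAAA, the TATA box. Positions are chr10:78718294-78718543 (minus strand) for Casp14, chr2:130012090-130012339 (plus) for Tgm3, chr11:100105627-100105876 (minus) for Krt36, chr3:92385435-92385684 (plus) for Sprr2h and chr3:92432332-92432581 (plus) for Sprr2k.
Casp14: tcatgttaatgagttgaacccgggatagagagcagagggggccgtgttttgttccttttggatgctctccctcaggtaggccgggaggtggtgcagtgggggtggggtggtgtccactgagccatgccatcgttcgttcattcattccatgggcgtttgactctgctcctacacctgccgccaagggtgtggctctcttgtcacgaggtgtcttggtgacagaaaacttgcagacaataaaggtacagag
Tgm3: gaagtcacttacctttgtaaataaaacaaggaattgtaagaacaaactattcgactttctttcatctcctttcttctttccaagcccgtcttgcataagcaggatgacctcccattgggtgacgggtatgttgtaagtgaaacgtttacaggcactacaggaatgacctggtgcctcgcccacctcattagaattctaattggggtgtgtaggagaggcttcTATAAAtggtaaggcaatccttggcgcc
Krt36: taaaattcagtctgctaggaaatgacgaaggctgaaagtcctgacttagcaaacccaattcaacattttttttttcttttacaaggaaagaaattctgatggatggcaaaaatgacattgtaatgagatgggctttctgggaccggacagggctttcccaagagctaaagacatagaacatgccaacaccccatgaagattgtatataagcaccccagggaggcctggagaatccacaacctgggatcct
Sprr2h: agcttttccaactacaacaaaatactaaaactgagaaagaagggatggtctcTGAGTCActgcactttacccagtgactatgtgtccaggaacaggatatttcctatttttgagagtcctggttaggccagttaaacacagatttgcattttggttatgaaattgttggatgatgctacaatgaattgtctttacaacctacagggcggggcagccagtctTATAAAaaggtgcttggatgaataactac
Sprr2k: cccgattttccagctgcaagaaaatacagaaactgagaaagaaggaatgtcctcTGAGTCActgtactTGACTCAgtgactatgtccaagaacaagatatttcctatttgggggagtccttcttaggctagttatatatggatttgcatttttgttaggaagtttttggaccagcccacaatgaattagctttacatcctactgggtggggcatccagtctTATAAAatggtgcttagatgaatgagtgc
AP-1 matched in Sprr2h, 198 bases before the start, and in Sprr2k, 196 and 182 bases before it. A match to AP-1 on either strand was present in 6.75% of the 32851 promoter windows of the table, in 10 of 50 windows of the members and in 0 of 5 windows of the lower members. TATAAA matched 28 bases before the start of Tgm3 and 29 bases before those of Sprr2h and Sprr2k, against 12.4% of all windows, 26 of 50 of the members and 0 of 5 of the lower ones. The steroid receptor sequence TGTTCT (either strand) lay in the windows of Tgm3, Krt36 and Sprr2k, against 16.1% of all, 10 of 50 of the members and 0 of 5 of the lower ones. The antioxidant response sequence TGACNNNGC lay in those of Casp14 and Krt36, against 10.2% of all, with the same counts for the members and the lower ones. CACCC, a sequence bound by Krüppel-like factors, was in 52.0% of all windows, in 4 of the 5 shown, in 4 of the 5 windows of the lower members and in 39 of 50 of the members. These matches describe letters only.

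Among keratins of stratified epithelium, 8 of 19 were tested, and 0 were higher and 0 lower. At an unadjusted p under 0.05 in limma 1 was higher and 0 lower, and the median log2 fold change was 0.03. That gene was Krt6a, a type II keratin induced in wounded and hyperproliferative epidermis, with 17.9, 43.7 and 53.1 in wild type and 72.4, 135.2 and 166.8 in NHE3-/- colon. Its groups did not overlap (1.15, SE 0.36; adjusted p = 0.0651), and it passed with medians set equal (1.24, adjusted p = 0.0448). A dimmer Krt6a probe set had 35.4, 26.5 and 45.8 against 124.4, 98.0 and 126.6 and was called (1.14, SE 0.30; adjusted p = 0.0358). Both Krt6a probe sets had wild-type means under the filter (6.09 and 6.06 on the log2 scale, against 6.52) and were tested through the NHE3-/- arrays, where they are high. Krt16 and Krt17, type I keratins induced with Krt6a in wounded skin, were below the filter, at 2.6 to 66.3 and 5.6 to 37.9.

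The basal pair was at the low end of the scale. Krt5 had 157.5, 44.3 and 124.5 against 129.3, 82.0 and 103.9, with no separation (0.05, SE 0.36; adjusted p = 0.948). Krt14 was below the filter, with 62.6, 63.7 and 79.8 against 4.1, 11.1 and 4.1 in its brightest probe set. In a fit without a filter Krt14 was called lower (-1.40, SE 0.28; adjusted p = 0.0188). Another Krt14 probe set went the opposite way, with 31.8, 9.2 and 33.6 against 47.3, 45.9 and 50, so its probe sets disagree. Krt13, of mucosal squamous epithelium, had 89.9, 17.7 and 72.9 against 95.6, 163.3 and 21.8 (0.36, SE 0.51; adjusted p = 0.689), and its partner Krt4 was below the filter at 18.9 to 108.2. Krt12, the corneal type I keratin, had 316.6, 553.8 and 647.9 against 349.3, 296.0 and 374.0 (-0.48, SE 0.24; adjusted p = 0.214), and leaving out wild-type array 1 gave -0.77 (adjusted p = 0.0293). Krt10, of the upper epidermis, had 303.0, 329.0 and 272.9 against 284.2, 279.7 and 350.3 (0.01, SE 0.18), and Krt42 had a mean of 1065 ± 153 against 1002 ± 121 (SD, n = 3 each; -0.08, SE 0.15). A much dimmer Krt42 probe set had 90.7, 93.1 and 90.0 against 121.5, 119.1 and 131.7. Its groups did not overlap, and it was not called (0.34, SE 0.25), so the Krt42 probe sets differ in level and direction. Krt78 (-0.28, SE 0.48) and Krt79 (0.13, SE 0.40) overlapped between groups.

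The desmosome genes of stratified epithelium were likewise not called. Of 5, Pkp1 and Dsc3 were tested, and at an unadjusted p under 0.05 in limma 1 was lower and 0 higher. Pkp1, a plakophilin of the upper epidermal layers, had 854.6, 595.7 and 1045 against 608.3, 634.9 and 457.5 (-0.51, SE 0.21; adjusted p = 0.138). Dsc3 had 71.7, 62.2 and 51.2 against 58.5, 83.7 and 71.2 (0.14, SE 0.30). Dsc1, a desmocollin of cornifying layers, was below the filter at 6.8, 12.7 and 17 against 30.3, 28.8 and 33.3, and Dsg1a and Dsg1b lay between 0.6 and 79.5.

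Of 20 hair keratins, 6 were tested, and 1 was higher. Krt36, a type I hair keratin, had 156.8, 141.4 and 146.2 in wild type and 339.5, 268.3 and 351.6 in NHE3-/- colon. The groups were well apart, and the mean rose from 148 ± 7.88 to 320 ± 45.0 (± SD over 3 arrays each). In limma its log2 difference was 0.96 (SE 0.20; adjusted p = 0.0116). The call was kept without any 1 of the arrays (0.89 to 1.07) and was lost with NHE3-/- array 3 alone (1.09, adjusted p = 0.0665). The other 5 tested, Krt32, Krt72, Krt81, Krt83 and Krt84, had log2 fold changes from -0.17 to 0.36, with overlapping groups. Of the keratins in none of these classes, Krt23, a type I keratin, had 185.0, 178.5 and 208.0 against 264.0, 322.8 and 308.1. Its groups did not overlap, and the log2 change of 0.57 (SE 0.19) had an adjusted p = 0.0783. It was called after quantile normalization and with probe sets averaged. Krt80 (0.42, SE 0.34) and Krt88 (0.03, SE 0.28) overlapped.

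Other genes of the cornified envelope and epidermal barrier, outside the membership rule, were read on the same arrays. Of 41 further envelope and epidermal barrier genes, 37 had a probe set of their own, 11 were tested, 1 was higher and 0 lower, and the median log2 fold change was 0.22. At an unadjusted p under 0.05 in limma 2 were higher and 0 lower. Lce3b, a late cornified envelope protein, had 29.6, 137.0 and 21.2 against 252.1, 214.3 and 296.6 (1.80, SE 0.40; adjusted p = 0.0166). Its wild-type mean of 6.35 on the log2 scale lay under the filter, so it was tested through the NHE3-/- arrays alone. Its call was lost without wild-type array 3 or NHE3-/- array 3. Lor, loricrin, the main protein of the epidermal envelope, had 178.2, 156.3 and 207.5 against 236.2, 152.4 and 271.6 (0.22, SE 0.24; adjusted p = 0.595). Spink5, a protease inhibitor of the skin barrier, was below the filter, with 1.5, 3.2 and 32.0 against 138.4, 175.5 and 100.1. It was called in a limma fit without a filter (2.00, SE 0.38; adjusted p = 0.0141) and is named after its values were seen. None of the other untested genes of this list was called in that fit. Their log2 fold changes ran from -0.66 for Tchhl1 to 0.76 for Lce1b. Flg, filaggrin, was among them, with 45.1, 31.9 and 21.7 against 22.8, 4.6 and 6.4 (-0.60, SE 0.28; adjusted p = 0.289).

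Of 14 tested regulators of squamous differentiation, 2 were higher and 0 lower (median 0.00), with 3 higher and 1 lower at an unadjusted p under 0.05 in limma. Elf3, an epithelial ETS factor also expressed in gut, rose from 7513 ± 651 to 10804 ± 1073 (± SD over 3 arrays each). The log2 difference in limma was 0.52 (SE 0.11; adjusted p = 0.0128), which was not called without wild-type array 3. Prdm1, a transcriptional repressor of epidermal and lymphoid differentiation, rose from 372 ± 130 to 767 ± 44.6 (1.04, SE 0.23; adjusted p = 0.0162), and was not called without NHE3-/- array 2 or with NHE3-/- array 3 alone. Klf4, which drives terminal differentiation in skin and colon, had 18988, 18427 and 19085 against 17917, 18403 and 19534 (-0.02, SE 0.09).

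Most of the squamous epithelium markers, 9 of 13, were below the filter. Trp63, the master regulator of basal squamous cells, had 34.2, 49.0 and 47.1 in wild type and 2.9, 25 and 110.0 in NHE3-/- colon, below the filter. The other 4, Krt5, Lor, Ly6d and Sbsn, were tested, and 0 were higher and 0 lower, with 1 higher at an unadjusted p under 0.05 in limma. The summed signal of all 13 markers, tested or not, was 940 to 1046 in wild type and 1043 to 1304 in NHE3-/- colon. Ly6d, a surface protein of squamous cells, had 133.6, 359.9 and 265.2 against 392.7, 778.2 and 372.7 (0.95, SE 0.33; adjusted p = 0.0925). Of 8 hair follicle markers 1 was tested and not called, and their sum was 305 to 529 against 324 to 340. For the neutrophil markers the sum was 265 to 422 against 960 to 3399, and 1 of 2 tested was higher. That rise was mostly S100a8: without it the other 6 summed to 224 to 376 in wild type and 242 to 448 in NHE3-/- colon. S100a8, also made by stressed squamous epithelium, had 59.0, 46.2 and 41.2 against 3034, 717.7 and 1356 (adjusted p = 0.000116), and passed the filter through the NHE3-/- arrays alone. Ngp, a granule protein, was not called (-0.03, SE 0.29; adjusted p = 0.966). Mpo, Elane and Camp, granule genes that define neutrophils, and S100a9 and Csf3r were below the filter. The S100a9 groups did not overlap, with 30.1, 41.1 and 28.1 in wild type and 146.8, 78.2 and 50.6 in NHE3-/- colon. In a limma fit without a filter S100a9 was not called (0.86, SE 0.37; adjusted p = 0.24). Between genotypes the signals of Mpo, Elane, Camp and Csf3r overlapped. The part of these cell types in the member values was not tested.

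The epithelial and muscle content of the samples was read from the same arrays. Of 9 colon epithelium markers, all tested, 1 was higher and 1 lower. Vil1, villin, rose from 12213 ± 895 to 16208 ± 584 (0.41, SE 0.10; adjusted p = 0.0203) and was not called when leaving out wild-type array 1 or 2, without NHE3-/- array 1 or 3 and after quantile normalization (0.25 to 0.53 over the alternatives). Cdx2, the homeobox factor of intestinal identity, fell from 4128 ± 685 to 2735 ± 252 (-0.58, SE 0.13; adjusted p = 0.0191; SD, n = 3 each) and was not called when leaving out wild-type array 2 or 3, without NHE3-/- array 3 and with medians set equal. Of 6 tested smooth muscle markers 0 were higher and 0 lower, also at an unadjusted p under 0.05 in limma. The summed signal of all 7 listed, with Cnn1 below the filter, was 1714 to 2008 against 1310 to 2621. Acta2 was the brightest, with 1146, 940.7 and 1003 against 1324, 1209 and 779.5. Myh11 had 121.0, 116.6 and 186.2 against 170.8, 152.0 and 74.2, near the array medians of 97.8 to 121.4. Des was also near them, with 55.2, 151.8 and 102.2 against 75.1, 110.5 and 118.2. How much of the muscle wall the samples held was not tested. Cnn1 had 25.3, 31.5 and 32.3 in wild type and 139.7, 185.1 and 28.1 in NHE3-/- colon, overlapping groups. Lce3b, Elf3, Prdm1, Dst, Vil1 and Cdx2 were not called without a variance trend, and Lce3b, Prdm1, Vil1 and Cdx2 were not called with NHE3-/- array 3 alone. The part of these marker levels in the falls of Krt18, Pkp2 and Dsp was not tested.

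Of the members, 21 had more than 1 probe set, which gave repeated readings within the same arrays. For Tgm2, Tgm3 and Casp14 every tested probe set was called in the same direction. For Pkp2, Pkp4 and Dsp only the brightest was called.

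**Figure D4:**
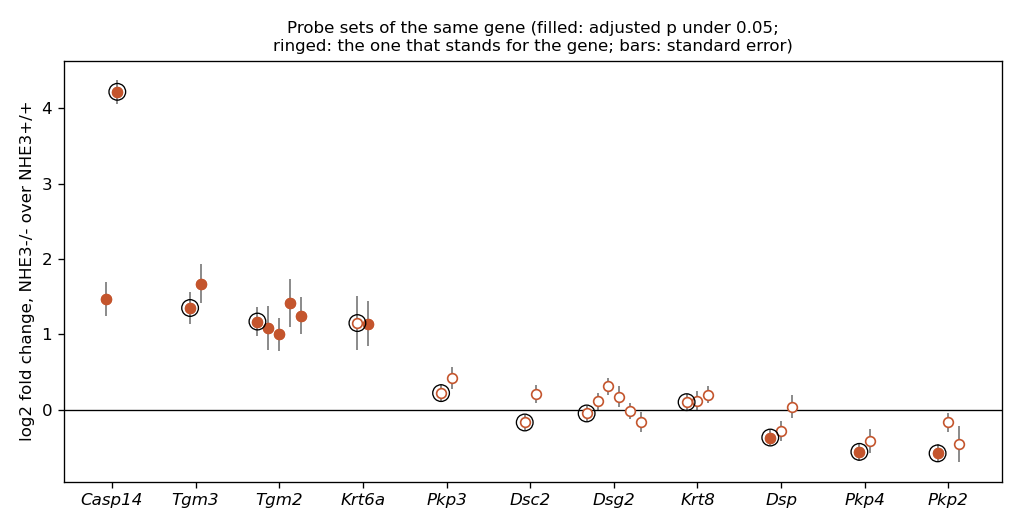
Log2 fold change (vertical axis, NHE3-/- over NHE3+/+) with standard error for every tested probe set of 11 members; filled points have an adjusted p under 0.05 and rings mark the probe set that stands for the gene. The Casp14 points lie at 4.22 and 1.47, the 5 Tgm2 points between 1.00 and 1.42, and the Dsp points between -0.37 and 0.04.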

How the data were processed

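Whole-colon RNA was hybridised to Affymetrix MOE430 2.0 arrays, 1 array per sample, per the labels. The values are intensity signals on a linear scale, deposited by the authors, 1 per probe set and array; per the submitters' processing notes they come from GCOS, and the settings used, and any detection calls, are not given in the sources used here. From these, log2(signal + 31.4) was taken, with a pseudocount equal to percentile 25 of all values and without further normalization. The 64 controls and dim probe sets, whose mean log2 value was below percentile 40 (6.52), were not tested. The 27022 others were fitted with limma 3.58.1 in R 4.3.3 (eBayes with a variance trend, genotype alone, two-sided), with Benjamini-Hochberg adjustment over all of them and a threshold of 0.05. Tested on simulated data (27022 probe sets, 200 of them changed), the fit recovered 41% at a log2 size of 1 and 78% at 2, with 7 false among 126 calls. The real fit called 3027 probe sets (11.2%), a larger share than was changed in the simulation, so these rates need not hold for it. Fold changes on this scale understate those of dim genes. The number of arrays limits the precision.

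The platform annotation gave the symbols: 1 gene for 34958 probe sets, several genes for 932 and no gene for 9211. Gene IDs of all 76 members matched RefSeq. Every called member is named with its values, with fixed lists of simple-epithelium, desmosome, envelope, Sprr and stratified genes, and up to 8 called genes per comparison list. Members and lists were chosen with earlier results of these data known. Alternatives covered the pseudocount, the filter, quantile and median scaling, the variance trend, a replicate block, leaving out arrays, and averaging probe sets.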

Additional observations from a re-analysis of the deposited data

How the results depend on the processing

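Of 567 values of single genes under alternative settings, 457 kept their direction and side of the threshold, 76 lost a call, 8 gained one and 26 changed sign, none of those from a called gene. Casp14, Tgm3 and Krt18 kept their calls in all 16 settings. Members higher numbered 6, and 3 with NHE3-/- array 3 alone. Members lower numbered 5, and 1 with medians set equal, without a variance trend or with NHE3-/- array 3 alone, and 2 to 5 when 1 array was left out. With the replicate number as a block, 6 were higher and 3 lower (Krt7 and Dsp were lost). Deviations of same-numbered arrays correlated at 0.026, -0.038 and 0.003, so the numbers were not taken to pair the samples. Of all probe sets, 1342 were higher and 1685 lower. These were 511 and 558 without a trend, 767 higher with NHE3-/- array 3 alone, 738 lower with medians set equal, and 787 and 866 with probe sets averaged per gene, where 11725 genes were tested. Leaving out 1 array gave 839 to 1211 higher and 774 to 1385 lower. Apart from the fewer genes or arrays in some fits, the cause was not tested.

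Signs turned for genes that were not called. Leaving out 1 array gave ranges of -0.10 to 0.01 for Dsg2, -0.17 to 0.07 for Evpl, -0.08 to 0.07 for Krt10, -0.05 to 0.88 for Krt13, -0.18 to 0.02 for Krt42, -0.35 to 0.31 for Krt5, -0.72 to 0.38 for Krt78 and -0.22 to 0.53 for Krt79. With NHE3-/- array 3 alone Evpl had 0.19, Krt13 -0.68, Krt42 0.11 and Krt78 0.18. With medians set equal Dsg2 had 0.07, Evpl 0.09 and Krt42 0.04. After quantile normalization Evpl had 0.08 and Krt8 -0.07. With probe sets averaged Dsc2 had 0.02, Dsg2 0.06 and Krt42 0.13. Dim signals limit what could be shown for the 37 members below the filter.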
